A study of Mus musculus with 2 samples.

Results

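The data describe 9 genes that encode coregulators of nuclear receptors, the proteins through which a DNA-bound receptor silences or activates a gene. They were chosen by name, and every probe set whose only gene symbol was one of these names was taken. Probe sets were found for 8 of the 9 genes (Hdac3, Tbl1xr1, Nrip1, Ncoa1, Ncoa2, Ncoa3, Ncoa6 and Med1), 30 probe sets of the 34945 that carried 1 gene symbol, and 8 of 18193 genes. Ncor1, the scaffold protein of the nuclear receptor corepressor complex, was not analysed here.

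The cells were RAW264.7, a mouse macrophage-like line, made to express murine LXRα (Nr1h3) stably by chemical transfection. On 1 array the RNA came from cells given GW3965 at 1 µM, an agonist of the liver X receptors, together with LG268 at 100 nM, an agonist of the retinoid X receptors, and on the other from cells given the solvent DMSO, both for 24 h. Both groups carried the LXRα transgene, no array of the parental line or of either ligand alone was used here, and whether the line was 1 clone is not stated in the labels. With 1 array a group there was no replicate, no test and no p-value, and "higher" and "lower" describe these 2 arrays.

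Without ligand, the liver X receptors sit on their target genes as heterodimers with retinoid X receptors and hold corepressors there, among them a complex of NCoR1 or its relative SMRT with the adaptor TBL1XR1 and the histone deacetylase HDAC3. Ligand changes the shape of the receptor, so that corepressors leave and coactivators bind through short leucine-rich LXXLL motifs. These coactivators include the p160 proteins (Ncoa1, Ncoa2 and Ncoa3), which bring histone acetyltransferases, Ncoa6, which brings histone methyltransferases, and MED1, which connects the receptor to Mediator and RNA polymerase II. The exchange takes place between proteins that are already present. The arrays measured only the mRNAs of these proteins, not their binding or their amounts.

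Values are MAS5 signals, a linear brightness of each probe set. The 2 arrays had the same trimmed mean signal of 2500, and the median over all probe sets other than controls, 276.4, served as a floor. A probe set is called measured where at least 1 of its 2 signals exceeded that floor. The ligands had acted, since Abca1, the sterol exporter induced by liver X receptors, had a signal of 81159 with the ligands, against 2989 with DMSO. Nr1h3 itself had 5577 with the ligands, against 3150 with DMSO, which is 1.77-fold higher. How much of that signal came from the LXRα transgene was not tested. All 7 macrophage markers were measured, and none of 3 lymphoid and 4 fibroblast markers was. In RNA from a whole culture, fewer cells that express a gene and less RNA of it per cell cannot be told apart. The only error available came from how far the 2 brightest probe sets of a gene differ, where both exceeded the floor on both arrays. It was an SD of 0.28 for the log2 ratio of a probe set over 4866 genes. This SD leans to brighter probe sets and holds no variation between cultures.

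None of the 8 genes was 1.5-fold apart by its brightest probe set, which represents the gene here. Of the 8 measured genes, 0 were at least 2-fold and 0 at least 1.5-fold higher or lower with the ligands, where 2.45% of all 11077 measured genes passed 2-fold and 11.1% passed 1.5-fold in either direction. The log2 ratios (ligands over DMSO) ran from -0.43 for Med1 to 0.47 for Ncoa3, with 3 positive and 5 negative. Their median was -0.02, and that of all measured genes was -0.03. Without regard to sign, the median log2 ratio was 0.29 for the 8 genes and 0.21 for all measured genes.

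Among the 30 probe sets, 26 were measured, 25 of them above the floor on both arrays. At a threshold of 2-fold, 1 was higher on the ligand array and 0 were lower, where 1.80% of all 20731 measured probe sets were higher and 1.07% lower. At 1.5-fold, 2 were higher and 2 lower, where 7.34% of all were higher and 5.98% lower. The 4 are 15.4% of the measured member probe sets, beside 13.3% of all. The 4 probe sets past 1.5-fold belonged to Nrip1, Ncoa2 and Ncoa3. The share past either threshold was close to that of the array as a whole.

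**Figure D1:**
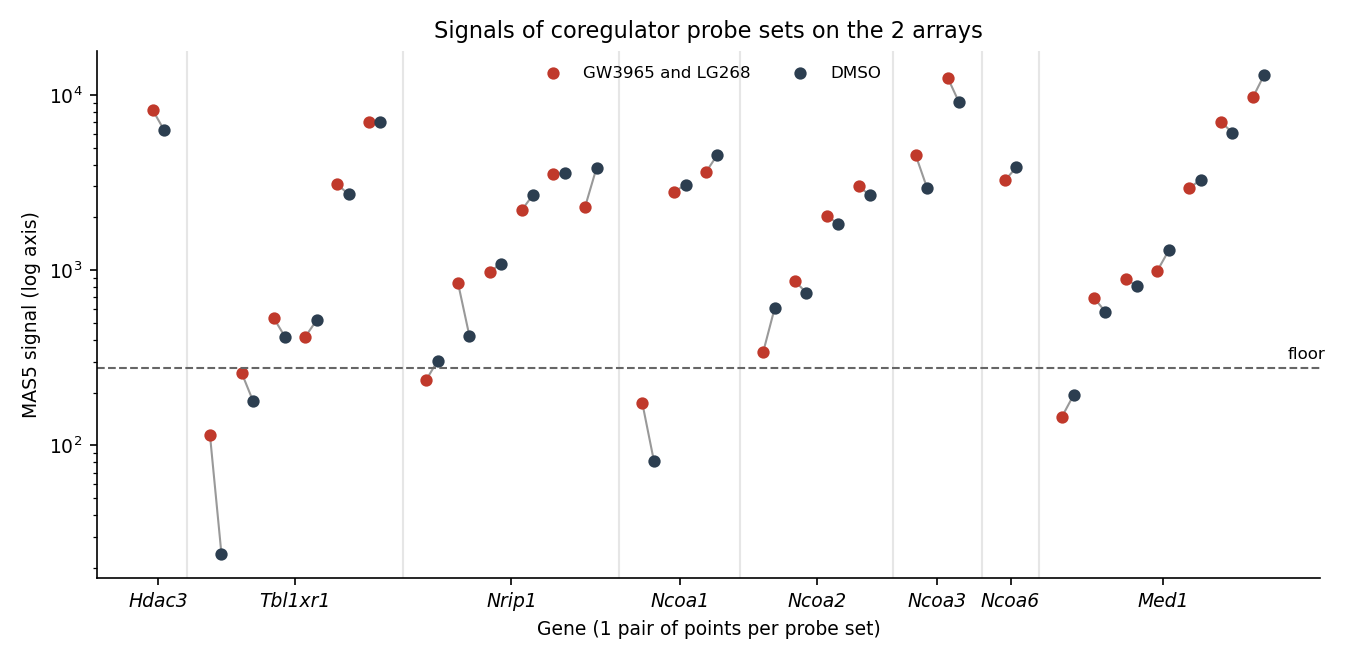
MAS5 signal (log axis) of each of the 30 coregulator probe sets, with the array of GW3965 and LG268 in red to the left of the DMSO array in dark blue, joined by a line, and the floor of 276.4 dashed. Most lines are nearly flat, and the 2 steepest belong to probe sets of Tbl1xr1 and Ncoa1 below the floor.

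**Figure D2:**
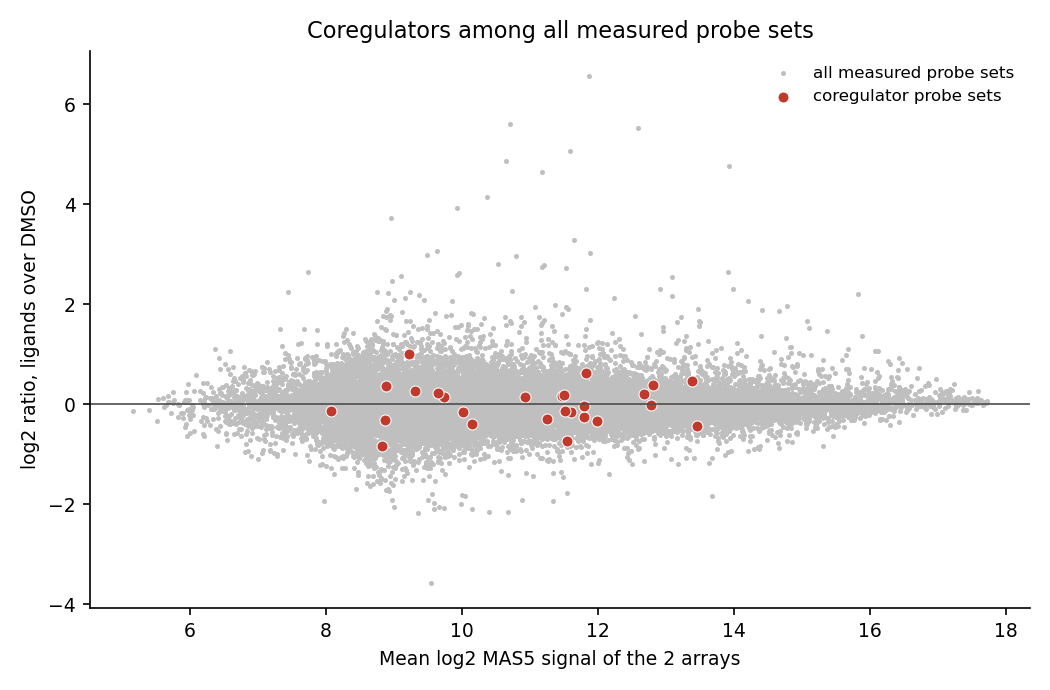
Log2 ratio (ligands over DMSO) against mean log2 signal for all 20731 measured probe sets in grey, with the 26 measured coregulator probe sets in red. The red points lie between -0.83 and 1.01 and within the grey cloud of probe sets of similar signal.

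The corepressor complex was represented by its deacetylase and its adaptor. Hdac3, the deacetylase that needs NCoR1 or SMRT for its activity, had a signal of 8169 with the ligands, against 6275 with DMSO, on its only probe set. That is 1.30-fold higher (log2 ratio 0.38), or 1.34 times the SD of a probe set. It lay inside the central 90% of probe sets of similar signal, which ran from -0.47 to 0.47. The name of that probe set ends in _s_at, so it may detect more than 1 transcript.

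Tbl1xr1, which recruits the ubiquitin machinery that clears corepressors from the receptor, was level by its brightest probe set, with 6964 on the ligand array and 7016 on the DMSO array (log2 ratio -0.01). The name of that brightest probe set ends in _s_at, so it may detect more than 1 transcript. The second brightest probe set of Tbl1xr1 had 3090.0 with the ligands, against 2703 with DMSO (log2 ratio 0.19). The 2 dimmer measured probe sets pointed in opposite directions, at 0.36 (534 with the ligands and 416 with DMSO) and -0.32 (417 with the ligands and 519.7 with DMSO). Both stood just above the floor, where the central 90% of probe sets spanned -0.90 to 0.91. The other 2 probe sets of Tbl1xr1 were below the floor on both arrays.

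Nrip1 encodes RIP140, which binds ligand-activated receptors through many LXXLL motifs and brings histone deacetylases to them, so that it dampens activated receptors. RIP140 is also known as a coactivator of NF-κB in macrophages. The brightest of its 6 probe sets (1434384_at) was level, with 3526 with the ligands, against 3584 with DMSO (log2 ratio -0.02). A probe set of nearly the same brightness (1449089_at) had 2303 with the ligands, against 3837.5 with DMSO. That is 1.67-fold lower (log2 ratio -0.74), outside the central 90% of probe sets of similar signal (-0.56 to 0.60). The largest difference of the 26 probe sets was in the opposite direction. Probe set 1447211_at had 845.5 with the ligands, against 421 with DMSO, which is 2.01-fold higher (log2 ratio 1.01) and above the central 90% at its signal (-0.86 to 0.94).

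The other 3 Nrip1 probe sets were slightly lower with the ligands. Their signals were 2191 with the ligands, against 2689 with DMSO, for 1418469_at, and 979 with the ligands, against 1089.5 with DMSO, for 1454295_at. These are log2 ratios of -0.30 and -0.15. The dimmest, 1432603_at, was below the floor with the ligands (236) and at 305 with DMSO, so that it was at least 1.10-fold lower. In all, 5 of the 6 Nrip1 probe sets had negative ratios and 1 a positive one, and their mean was -0.06 ± 0.58 (SD over probe sets, n = 6). The ratios spanned 1.74 on the log2 scale. Among the 117 genes with 6 measured probe sets the median span was 0.75, and 3 of them, Nrip1 included, spanned at least as much. Which transcript each probe set detects was not tested.

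RefSeq lists 2 starts for Nrip1, and their windows are shown because this is the gene whose probe sets disagreed most. Each window runs from 250 bases before the start to 50 after it, 5′ to 3′ on the minus strand of GRCm38.p6. The outer one lies at chr16:76373778-76374077 and the inner one at chr16:76373000-76373299. Capitals mark matches on either strand to GGGCGG, the GC box bound by Sp1-type factors, or to AGGTCA, the hexamer that liver X and retinoid X receptors read.
Nrip1 outer start: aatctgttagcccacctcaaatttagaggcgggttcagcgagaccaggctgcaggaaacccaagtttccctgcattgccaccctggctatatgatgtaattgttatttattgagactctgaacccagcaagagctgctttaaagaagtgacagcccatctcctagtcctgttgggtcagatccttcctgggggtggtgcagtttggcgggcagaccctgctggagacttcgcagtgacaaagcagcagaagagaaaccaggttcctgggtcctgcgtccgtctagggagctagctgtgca
Nrip1 inner start: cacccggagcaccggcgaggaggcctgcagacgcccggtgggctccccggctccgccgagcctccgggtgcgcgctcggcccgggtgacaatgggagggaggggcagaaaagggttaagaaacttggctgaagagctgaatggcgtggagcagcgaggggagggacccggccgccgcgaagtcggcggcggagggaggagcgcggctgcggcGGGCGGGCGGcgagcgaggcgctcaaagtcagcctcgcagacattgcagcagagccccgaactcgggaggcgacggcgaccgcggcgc
The inner window is 73.3% G and C and holds 2 overlapping GC boxes whose first bases are at positions -38 and -34 from the start. The outer one is 52.7% G and C, the same as the median of all 32851 windows, and holds neither motif. Neither window holds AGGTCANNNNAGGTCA, the direct repeat with a spacing of 4 bases that the LXR and RXR heterodimer binds. Only 0.0152% of all windows hold that exact repeat, so its absence here says little about Nrip1.

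The brightest probe sets of the p160 coactivators had ratios of both signs, each within 1.5-fold and inside the central 90% at its signal. Ncoa3, also known as SRC-3 or AIB1, had the highest ratio of the 8 genes by brightest probe set, and its 2 probe sets had the same direction. The brighter one had 12539 with the ligands, against 9060.1 with DMSO, which is 1.38-fold higher (log2 ratio 0.47, or 1.65 times the SD of a probe set). It lay inside the central 90% of probe sets of similar signal (-0.44 to 0.51). The second had 4505 with the ligands, against 2921 with DMSO, which is 1.54-fold higher (log2 ratio 0.63) and above the central 90% of probe sets of similar signal (-0.49 to 0.54). Their mean was 0.55 ± 0.11 (SD over probe sets, n = 2).

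Ncoa1, or SRC-1, the first p160 coactivator described, pointed the other way. Its brightest probe set (1418594_a_at) had 3626 with the ligands, against 4545 with DMSO (log2 ratio -0.33). The second had 2794 with the ligands, against 3069.9 with DMSO (log2 ratio -0.14). Both differences were inside the central 90% at their signals, and the third probe set was below the floor on both arrays.

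Ncoa2, or TIF2, which in macrophages also serves the glucocorticoid receptor as a corepressor of inflammatory genes, had 3 of 4 probe sets slightly higher. Its brightest had 3008 with the ligands, against 2670.2 with DMSO (log2 ratio 0.17), and the next had 2034 with the ligands, against 1841 with DMSO (log2 ratio 0.14). The third had 865 with the ligands, against 742 with DMSO (log2 ratio 0.22). These 3 ratios lay close together. The fourth and dimmest (1446827_at) had 341 with the ligands, against 606 with DMSO. It was 1.77-fold lower (log2 ratio -0.83), which was still inside the wide central 90% at its signal (-0.90 to 0.91).

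**Figure D3:**
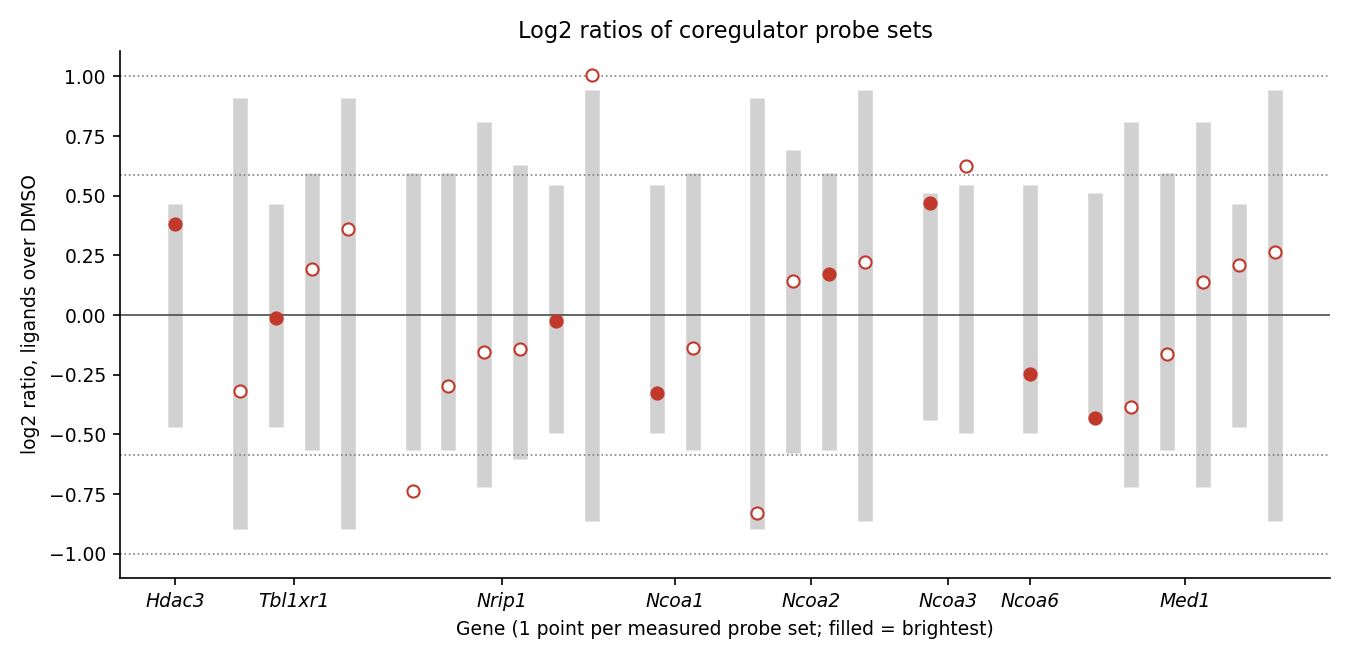
Log2 ratio (ligands over DMSO) of each of the 26 measured probe sets by gene, filled for the brightest probe set of the gene, with grey bars for the central 90% of all probe sets of similar signal and dotted lines at 1.5-fold and 2-fold. Of the 26 points, 3 lie outside their bar, 2 of Nrip1 in opposite directions and 1 of Ncoa3. By definition the bars hold 90% of all measured probe sets, so the count outside them is close to the share over the whole array.

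Ncoa6, also called ASC-2, is a coactivator that binds liver X receptors and belongs to a complex with the histone H3 lysine methyltransferases KMT2C and KMT2D. Its only probe set had 3245 with the ligands, against 3849 with DMSO (log2 ratio -0.25, 1.19-fold lower). That difference was smaller than the SD of a probe set. Its RefSeq window is shown because it is the only 1 of 6 windows, from 5 of the 8 measured genes, that holds AGGTCA, where 16.3% of all windows do. The window lies at chr2:155440734-155441033 on the minus strand of GRCm38.p6, inside the gene, whose outermost start is at 155473911. Capitals mark the hexamer, which begins at base 20 after the start and reads AGGTCA on the other strand.
Ncoa6 inner start: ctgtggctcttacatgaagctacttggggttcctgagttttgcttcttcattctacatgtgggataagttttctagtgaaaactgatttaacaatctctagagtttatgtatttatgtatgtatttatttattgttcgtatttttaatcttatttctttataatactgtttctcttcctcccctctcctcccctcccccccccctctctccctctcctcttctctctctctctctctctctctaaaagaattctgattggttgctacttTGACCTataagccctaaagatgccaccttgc
The repeat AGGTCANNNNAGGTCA was in 0 of the 6 windows and in 0.0152% of all windows. Repeats spaced by 1 or 5 bases were also in 0 of the 6, and in 0.0396% and 0.00913% of all windows. At shares this low, absence from 6 windows says little. GC boxes were in 4 of the 6, and in 35.7% of all windows.

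Med1 is the Mediator subunit that ligand-bound receptors contact directly. Its brightest probe set (1421907_at) had the lowest ratio of the 8 genes, with 9652 with the ligands, against 13015.5 with DMSO, which is 1.35-fold lower (log2 ratio -0.43). The second brightest (1448708_at) had 7014 with the ligands, against 6062 with DMSO, 1.16-fold higher (log2 ratio 0.21). These 2 bright probe sets thus differed in direction. The 6 measured probe sets divided evenly, 3 lower and 3 higher, from -0.43 to 0.26.

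On the lower side, 1447450_at had 994 with the ligands, against 1299.6 with DMSO (log2 ratio -0.39). Probe set 1421906_at had 2934 with the ligands, against 3279.9 with DMSO (log2 ratio -0.16). On the higher side, 1453972_x_at had 696 with the ligands, against 579.8 with DMSO (log2 ratio 0.26), and 1450402_at had 892 with the ligands, against 809.6 with DMSO (log2 ratio 0.14). The mean over the 6 was -0.06 ± 0.31 (SD over probe sets, n = 6). The lower value given for Med1 as a gene rested on its brightest probe set. The seventh probe set was below the floor on both arrays.

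**Figure D4:**
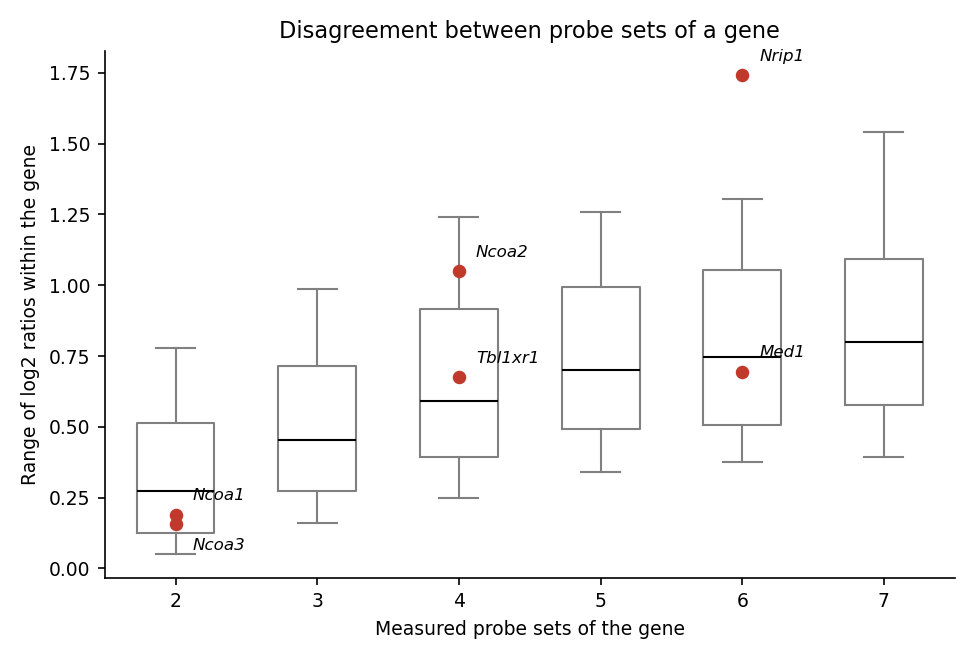
Range of log2 ratios between the measured probe sets of a gene, against the number of measured probe sets, for all genes (boxes from the 25th to the 75th percentile, line at the median, whiskers at the 10th and 90th percentiles) and for 6 coregulators (red). Nrip1 lies above the whisker of genes with 6 measured probe sets, and Med1, Ncoa1, Ncoa2, Ncoa3 and Tbl1xr1 lie within theirs.

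The comparison was widened to 96 other coregulator genes in 6 lists, of which 91 were measured. By the brightest probe set, 1 gene was past 2-fold upward and 1 downward. At 1.5-fold, 2 were higher and 4 lower, 6.59% of those measured, beside 11.1% of all genes. Negative ratios made up 63 of the 91 (69.2%), beside 53.8% of all measured genes. The median log2 ratio was -0.09, beside -0.03 for all measured genes, and 59 of the 91 lay below that all-gene median.

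Partners of the NCoR and SMRT complex held the highest ratio. Coro2a, an actin-binding coronin that associates with the NCoR complex and serves its removal from inflammatory gene promoters, had 2090.1 with the ligands, against 918 with DMSO, on its only probe set. It was 2.28-fold higher (log2 ratio 1.19), but both signals lie below a floor at the 75th percentile (2186), where it no longer counts as measured. Hdac7, a class IIa deacetylase, had 342 with the ligands, against 675 with DMSO, 1.97-fold lower (log2 ratio -0.98) close to the floor. The other 6 measured partners were within 1.5-fold, among them Tbl1x, the close relative of Tbl1xr1 (log2 ratio -0.26, -0.31 to -0.17 over 3 probe sets), and Gps2, the small NCoR-complex subunit (log2 ratio 0.07). The median of the 8 was -0.08.

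In the 18 measured genes of other corepressor and deacetylase complexes the median was -0.04. Hr, the hairless corepressor, was the lowest, with 289 with the ligands, against 888 with DMSO, 3.07-fold lower (log2 ratio -1.62), its ligand signal lying just above the floor. The highest by brightest probe set was Spen, a repressor that binds SMRT, at 0.40. Dimmer probe sets differed more, from -0.55 to 1.10 within Rbbp4 and from -0.43 to 0.98 within Lcor. Among 15 other coactivators and their enzymes, 0 were 1.5-fold apart by the brightest probe set, though probe sets of Kat2a ran from -0.84 to 0.12. The brightest probe sets of the 15 ranged from -0.40 for the acetyltransferase Ep300 to 0.30 for Ncoa4, which is also the receptor for autophagy of ferritin. The ratio was negative for 8 of the 9 partners of Ncoa6 (88.9%, beside 53.8% of all measured genes), and 7 lay below the all-gene median. These values, each from the brightest probe set, ran from -0.27 for Kmt2d to 0.0021 for Kmt2c, and none was 1.5-fold apart. Paxip1, Kdm6a, Pagr1a and Wdr5 also had positive probe sets (Paxip1 up to 0.96), and the lowest of Kmt2c was -0.71. Kmt2d, Rbbp5, Ash2l and Dpy30 had only negative ratios.

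All 30 other Mediator genes were measured. By the brightest probe set, 24 had negative ratios (80.0%, beside 53.8% of all measured genes), with a median of -0.13. Med13, Med14, Med15, Med25, Med28 and Ccnc had probe sets of both signs (Med14 from -0.50 to 0.57). Below the all-gene median lay 22 of the 30. Single ratios were small, since 28 of the 30 were within 1.5-fold. Med18 was the lowest, with 1229 with the ligands, against 2183 with DMSO, 1.78-fold lower. Med29 was the highest, with 3902 with the ligands, against 2375 with DMSO, 1.64-fold higher, and its second probe set was also positive (log2 ratio 0.58). Of 11 measured SWI/SNF chromatin remodelling subunits, Smarcc1 was 1.54-fold lower (9600.3 with the ligands and 14744 with DMSO), but its 3 probe sets ran from -0.62 to 0.39. Smarce1 was the highest of them at 0.28.

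**Figure D5:**
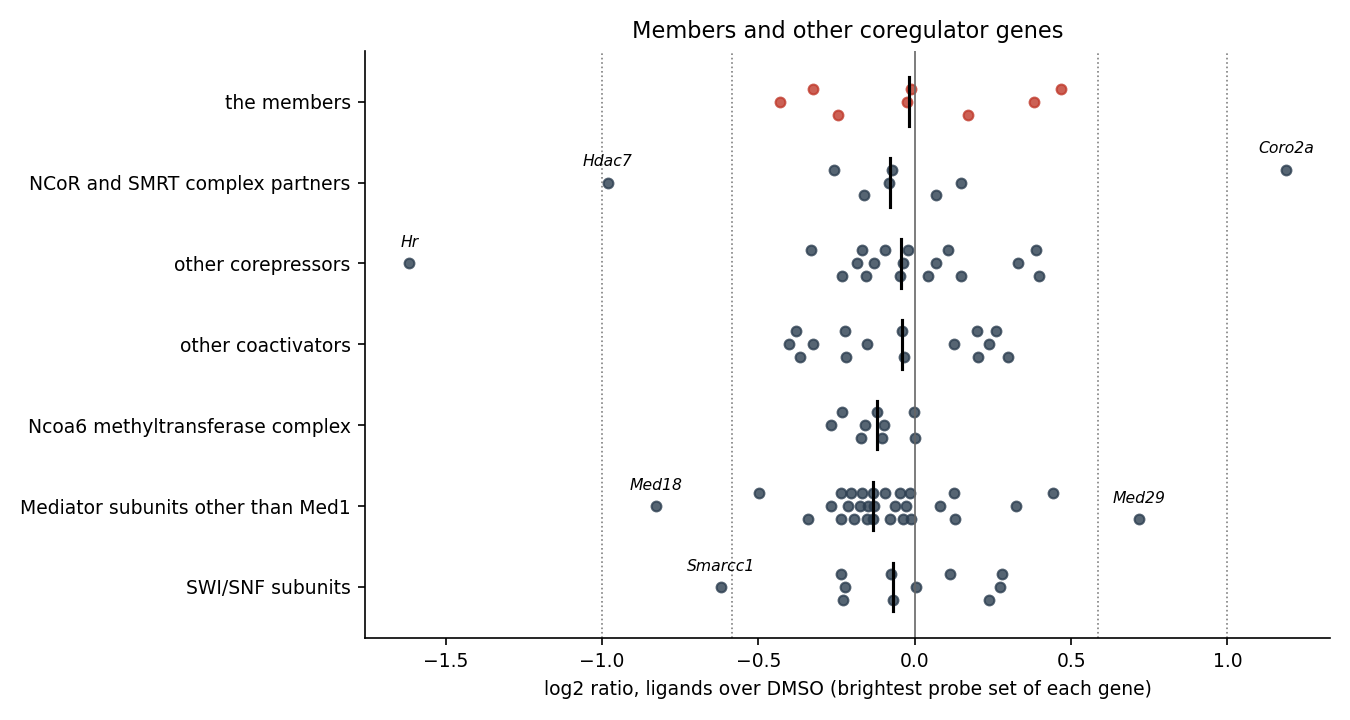
Log2 ratio (ligands over DMSO) of the 8 members (red) and of 91 measured genes in 6 lists of other coregulators (blue), each by its brightest probe set, with the median of each row as a bar and dotted lines at 1.5-fold and 2-fold. Only Coro2a, Med29, Hdac7, Hr, Med18 and Smarcc1 pass 1.5-fold and are named.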

How the data were processed

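Expression was measured on 2 Affymetrix mouse arrays of biotin-labelled total RNA, 1 per group. The deposited values are intensities on a linear scale, 1 signal per probe set, made by the authors with MAS5, per the submitters' processing notes. Its version is not stated there. MAS5 scales each array, so ratios are relative to the array as a whole. Values were used as deposited, since the 2% trimmed means were equal.

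Names came from the platform annotation, with symbols updated by gene identifier to GRCm38.p6. Of 45101 probe sets, 34945 carried 1 symbol. Signals below the floor, the median (50th percentile) of all probe sets but the 64 controls, were raised to it before log2 ratios of ligands over DMSO were taken. The brightest probe set represented a gene. Central ranges came from 10 bins of signal, each of 2073 to 2074 measured probe sets. The procedure was tested on simulated data with changes larger than that of any member probe set, so the test does not cover differences as small as theirs. Precision was limited by the number of arrays.

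The 9 members and the 6 lists were chosen with earlier results of these data known. Named genes were all members with every probe set, each list's genes at least 1.5-fold apart, its highest and its lowest gene, and Abca1 and Nr1h3. Tbl1x and Gps2 were named after their values were seen. No genes were named for likeness to a member, since with 2 arrays a pattern is 1 ratio. Promoter windows came from RefSeq (GRCm38.p6). Alternatives were floors at the 25th and 75th percentiles, a floor over probe sets with 1 symbol (chosen after seeing the data), log2(signal + 32), quantile normalization, centring, means over probe sets, leaving out _s_at, _x_at and _a_at probe sets, both signals above the floor and a threshold of 1.5-fold. Python 3.11.15, numpy 2.4.6, pandas 2.3.3 and matplotlib 3.10.9 were used.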

Additional observations from a re-analysis of the deposited data

How the results depend on the processing

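No paired analysis was possible because each group had 1 array, and leaving out an array was not possible for the same reason. In all 9 alternatives that kept the 1.5-fold threshold and gave a value, 0 of the member genes were 1.5-fold higher or lower. The log2 ratio of Med1 was -0.061 as a mean over probe sets, where its bright probe sets have opposite signs. Tbl1xr1 ranged from -0.01 to 0.19 and Ncoa2 from -0.07 to 0.19. Ncoa3 stayed between 0.47 and 0.55. With the floor at the 25th percentile, 2 member probe sets passed 2-fold and 4 passed 1.5-fold upward, because dimmer probe sets then counted. With the floor at the 75th percentile these were 0 and 1, with 1 at least 1.5-fold lower. The other coregulators were then 0 and 0 at 2-fold, higher and lower, and 1 and 1 at 1.5-fold, with Coro2a below that floor. With log2(signal + 32), 0 member probe sets were 2-fold higher, since the log2 ratio of Nrip1 probe set 1447211_at was then 0.95. With a threshold of 1.5-fold in place of 2-fold, 2 were higher and 2 lower, and of the other coregulators 2 and 4. With the floor over probe sets with 1 symbol, 1 member probe set was at least 1.5-fold lower. Signals near the floor limit Nrip1 1447211_at, Ncoa2 1446827_at, Hdac7 and Hr, and the log2 ratio of Hr was -1.13 with that last floor.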

Other observations

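Measured member probe sets designed from RefSeq mRNA records had 3 positive and 3 negative log2 ratios, with a median of -0.05. Another 16 were classed as expressed sequence tags only because their accession prefix was not among those taken as RefSeq or full-length cDNA records. They had 6 positive and 10 negative ratios, with a median of -0.08, and held both the highest (1.01, Nrip1) and the lowest (-0.83, Ncoa2). Both kinds of probe set held ratios of both signs.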
